A study of Homo sapiens with 18 samples.

Results

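Small nucleolar RNA (snoRNA) host genes were followed through the knockdown of 2 histone methyltransferases in 3 human pancreatic ductal adenocarcinoma cell lines. The members were the identifiers whose GENCODE v29 name starts with SNHG, together with GAS5, ZFAS1, EPB41L4A-AS1 and DANCR. They were kept where the mean over the 18 libraries was at least 0.5 CPM. CPM is the count of a gene scaled to the library's total gene count times its factor from the trimmed mean of M-values (TMM). Of 63677 identifiers in the count files, 28 carried such a name and 24 met the level. The nearest below the threshold was SNHG21, with a mean of 0.497 CPM, and the nearest above it was SNHG22, with a mean of 0.973 CPM. SNHG28 had 2 identifiers, at 0.289 and 0 CPM, and SNHG27 was listed at 0. All 24 members passed the low-count filter and were tested.

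Each of the lines PANC1, COLO357 and SUIT2 gave 6 libraries after 48 h of transfection: 1 with Control siRNA, 2 with an siRNA to KMT2D (siRNA1 and siRNA2) and 3 with an siRNA to KMT2C (siRNA1, siRNA2 and siRNA3). No other genotype or agent was labelled, each siRNA was used once in each line, and the 3 lines served as the replicates of an siRNA. KMT2C and KMT2D are the enzymes that place monomethyl marks on histone H3 lysine 4 at enhancers. RNA was depleted of ribosomal RNA and sequenced as stranded 100 nt read pairs. A library held 14205640 to 32115894 counts in genes, and 7.49% to 30.4% of its read pairs lay in no annotated feature.

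KMT2D mRNA was below the own line's control in 6 of 6 libraries given a KMT2D siRNA, at 34.8% to 84.7% of it. KMT2C mRNA was below it in 8 of 9 libraries given a KMT2C siRNA, at 43.2% to 82.1%. The exception was the library labelled PANC1 KMT2C siRNA2, where KMT2C stood at 116% and KMT2D at 372% of the control. Over the 9 libraries given a KMT2C siRNA, KMT2D mRNA ran from 99.1% to 372% of the own line's control. Over the 6 given a KMT2D siRNA, KMT2C mRNA ran from 92.7% to 274%. The part of these levels in the host values was not tested. More than 20% of read pairs lay in no feature in 3 libraries, those of KMT2C siRNA3 in COLO357 and in SUIT2 and that of KMT2C siRNA2 in SUIT2. All 6 epithelial markers (CDH1, EPCAM, KRT7, KRT8, KRT18 and KRT19) had a mean above 1 CPM. Among markers of other cells, 5 of 6 for fibroblasts (all but COL1A1), 5 of 6 for leukocytes (all but LYZ) and 3 of 4 for endothelium (all but CDH5) were under 1 CPM, and PECAM1 was listed at 0 throughout.

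A snoRNA host gene carries snoRNAs in its introns. After splicing, the intron is trimmed to a snoRNA that guides 2′-O-methylation (box C/D) or pseudouridylation (box H/ACA) of ribosomal RNA and other RNAs, while the spliced exons form a transcript with little or no protein-coding use. Many of these transcripts start with a pyrimidine tract like that of ribosomal protein mRNAs, are engaged by ribosomes and are removed by nonsense-mediated decay, and their level is known to follow growth and translation. GAS5 takes its name from its rise on growth arrest, SNHG1, SNHG16 and SNHG3 are often high in tumours, and DANCR and ZFAS1 are known as long noncoding RNAs of progenitor and tumour cells.

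The start sites of 6 hosts are shown because 4 of them (SNHG16, SNHG1, SNHG8 and SNHG26) carry the calls below, and ZFAS1 and SNHG12 are described further on. Each line gives the 20 bases before and 30 bases from the RefSeq start on, in GRCh38.p14, 5′ to 3′ along the gene. Capitals mark the longest run of C and T letters that reaches within 5 bases of the start.
SNHG16 (chr17:76557744-76557793, plus strand): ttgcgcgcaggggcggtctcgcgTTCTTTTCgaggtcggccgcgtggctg
SNHG1 (chr11:62855856-62855905, minus strand): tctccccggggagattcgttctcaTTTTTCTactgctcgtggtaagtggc
SNHG8 (chr4:118278742-118278791, plus strand): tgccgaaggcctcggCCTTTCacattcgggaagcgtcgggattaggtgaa
SNHG26 (chr7:22854220-22854269, plus strand): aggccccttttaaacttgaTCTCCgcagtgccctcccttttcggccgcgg
ZFAS1 (chr20:49278622-49278671, plus strand): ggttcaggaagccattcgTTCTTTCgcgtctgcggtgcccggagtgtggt
SNHG12 (chr1:28581844-28581893, minus strand): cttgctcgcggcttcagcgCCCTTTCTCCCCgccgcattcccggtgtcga
The RefSeq promoter table held 20 of the 24 members. A run of 5 or more C or T letters in that position was present in 14 of the 20 (70%), in 66 of 78 cytosolic ribosomal protein genes (84.6%) and in 35.7% of all 35116 promoters in the table. A run of 8 or more was present in 4 of the 20 (20%), in 70.5% of the ribosomal protein genes and in 11.5% of all promoters, and the median longest run was 6 letters in the hosts, 11 in the ribosomal protein genes and 4 in all promoters. On the other strand, as a run of 5 or more A or G letters, it was present in 2 of the 20 (10%) and in 30.4% of all promoters. Only SNHG7 held CACGTG, a palindrome and the core that MYC family proteins bind, in the 300 bases around its start, beside 7.26% of all promoters. These matches are descriptions of the letters and not of binding or of translation.

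The same 4 hosts, SNHG1, SNHG16, SNHG8 and SNHG26, hold 7, 3, 1 and 1 annotated snoRNAs. Of these 6 are given from the GENCODE v29 transcripts, as examples of what the introns of these hosts carry. For box C/D snoRNAs, capitals mark the GATG core of box C near the 5′ end and the CTGA of box D near the 3′ end. In SNORD22 of SNHG1, not shown, no GATG was found. For the H/ACA snoRNA, capitals mark the ACA that stands 3 bases from the 3′ end.
SNORD1A (in SNHG16): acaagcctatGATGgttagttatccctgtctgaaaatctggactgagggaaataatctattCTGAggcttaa
SNORD1B (in SNHG16): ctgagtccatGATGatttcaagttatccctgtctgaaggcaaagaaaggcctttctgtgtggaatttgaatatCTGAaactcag
SNORD25 (in SNHG1): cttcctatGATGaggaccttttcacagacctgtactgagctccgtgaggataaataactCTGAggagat
SNORD27 (in SNHG1): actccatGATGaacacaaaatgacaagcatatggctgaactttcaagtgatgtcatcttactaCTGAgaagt
SNORA24 (in SNHG8): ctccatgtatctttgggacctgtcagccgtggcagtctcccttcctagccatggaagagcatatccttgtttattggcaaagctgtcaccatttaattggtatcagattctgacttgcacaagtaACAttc
SNORD93 (in SNHG26): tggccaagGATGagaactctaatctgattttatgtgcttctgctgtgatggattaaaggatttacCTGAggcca
The annotation placed 133 snoRNA or scaRNA genes inside the 24 members on the same strand, 84 of them in SNHG14, the long transcript of the imprinted region that holds the SNORD115 and SNORD116 clusters. Of these, 93 had an identifier in the files and 24 could be tested. SNORD1B, for example, had 31 counts over all 18 libraries. At least 1 could be tested in 12 of the 24 members, and 8 members had none with an identifier in the files, SNHG1, SNHG8 and SNHG5 among them. GAS5 was also 1 of the 8. The annotation placed 0 snoRNA genes inside it, so none was counted for it here.

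**Figure D1:**
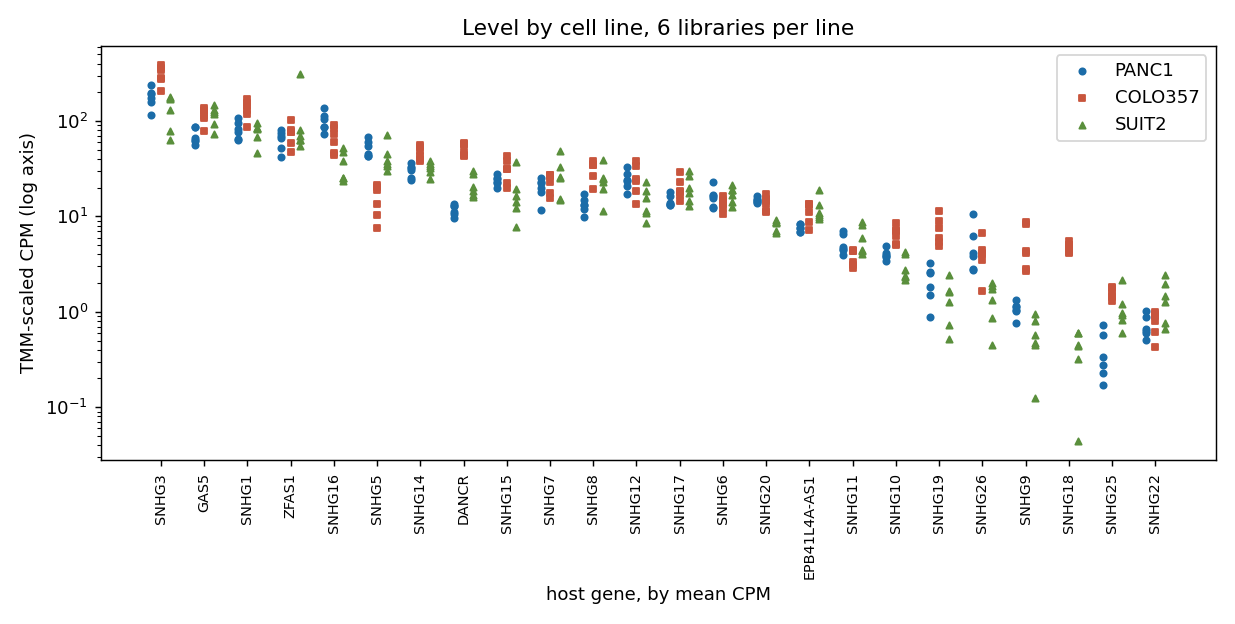
Level of each of the 24 host genes in the 6 libraries of PANC1 (circles), COLO357 (squares) and SUIT2 (triangles), in TMM-scaled CPM on a log axis, with genes in order of mean CPM. SNHG18 was at 0 counts in PANC1, which a log axis cannot show, and lay at 4.17 to 5.59 CPM in COLO357.

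Levels in this report are CPM scaled by the trimmed mean of M-values (TMM), and only values divided by exon length are compared between genes. Per kilobase of exon, SNHG3 was the highest, at 50.8 ± 22.7 CPM per kb (SD over 18 libraries), followed by ZFAS1 at 36.6 ± 26.5, GAS5 at 27.6 ± 8.13, SNHG1 at 26.0 ± 8.96 and SNHG8 at 24.8 ± 10.7 CPM per kb. Neighbours among these 5 differed by less than the larger of their SDs. SNHG5, SNHG16, SNHG6, DANCR and SNHG19 lay between 10.6 and 13.1 CPM per kb, and SNHG15, SNHG7, SNHG12, SNHG17, SNHG9, SNHG25 and EPB41L4A-AS1 between 3.09 and 6.65 CPM per kb. SNHG10, SNHG20, SNHG11, SNHG26, SNHG18, SNHG14 and SNHG22 were at 0.375 to 2.31 CPM per kb. SNHG14 is low on this scale since its annotated exons sum to 43324 bases. SNHG3 holds SNORA73B, an H/ACA snoRNA of 204 bases, which had 42637 counts in all beside 81748 for its host.

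The main question was whether loss of KMT2D or KMT2C moved the hosts. One member, SNHG16, rose with KMT2D siRNA, and it did so with both siRNAs. SNHG16 carries SNORD1A, SNORD1B and SNORD1C, box C/D snoRNAs. In PANC1 its level was 86.3 CPM with control siRNA, 136 and 104 CPM with KMT2D siRNA1 and siRNA2, and 112, 73.8 and 86.1 CPM with KMT2C siRNA1, siRNA2 and siRNA3. In COLO357 it was 44.2 CPM with control siRNA, 84.5 and 90.7 CPM with KMT2D siRNA1 and siRNA2, and 74, 45.8 and 59.7 CPM with KMT2C siRNA1, siRNA2 and siRNA3. In SUIT2 it was 25.3 CPM with control siRNA, 47.3 and 52.7 CPM with KMT2D siRNA1 and siRNA2, and 38.1, 23.3 and 25.4 CPM with KMT2C siRNA1, siRNA2 and siRNA3. All 6 KMT2D libraries lay above the control of their own line, at 120% to 208% of it, while the 9 KMT2C libraries ran from 85.5% to 167%. Across lines the groups overlapped.

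SNHG16 was 1.77-fold higher with KMT2D siRNA1 (log2 fold change 0.82, SE 0.158, edgeR quasi-likelihood adjusted p = 0.00266) and 1.74-fold higher with KMT2D siRNA2 (0.80, SE 0.159, adjusted p = 0.00201). These comparisons share the 3 control libraries. It was the 1 member of 24 called with each, where 4.02% and 8.92% of the 21028 genes tested were called (1.84% and 3.98% in the higher direction). With the 6 KMT2D libraries as 1 group the log2 fold change was 0.81 (SE 0.196, edgeR adjusted p = 0.0413), again the only call among 24 members (4.17%), beside 1.2% of all genes (0.699% higher). That combined call was lost without any 1 of the 3 controls (adjusted p from 0.106 to 0.268), without the KMT2D siRNA1 library of PANC1 or SUIT2 or the KMT2D siRNA2 library of COLO357 or SUIT2 (0.0575 to 0.0725), without the KMT2C siRNA3 library of PANC1 or COLO357 (0.0572 and 0.0504), and without any 1 line (0.143 to 0.329). The log2 values in these fits were 0.72 to 0.98. With limma-voom and siRNA as a random block it was also lost (0.78, adjusted p = 0.139). The calls for the separate siRNAs held without any single library, and were lost without SUIT2 (adjusted p = 0.0610 for siRNA1 and 0.0717 for siRNA2).

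**Figure D2:**
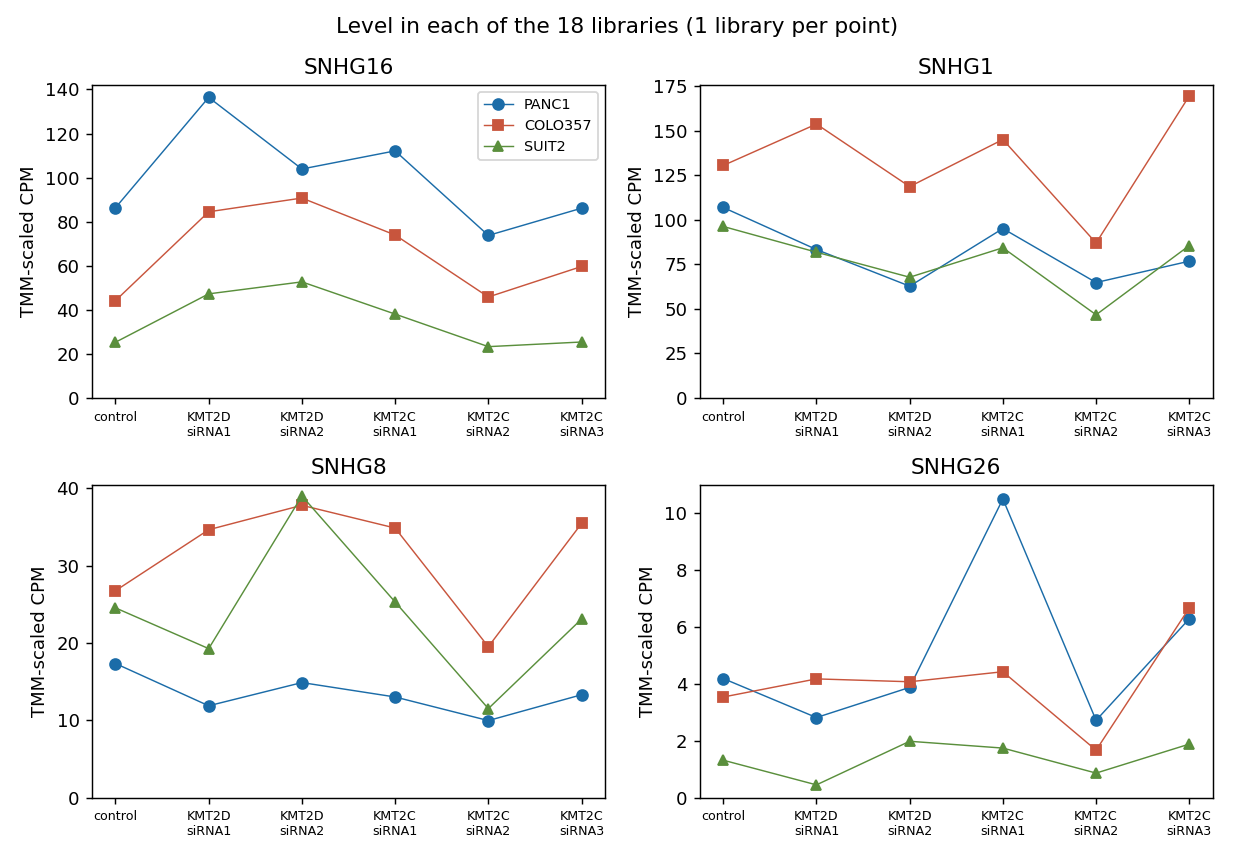
Level of SNHG16, SNHG1, SNHG8 and SNHG26 in each of the 18 libraries, in TMM-scaled CPM on a linear axis from 0. Each point is 1 library and lines join the libraries of 1 cell line. SNHG16 was above the control in 6 of 6 KMT2D libraries, and SNHG1, SNHG8 and SNHG26 were each below it in 3 of 3 KMT2C siRNA2 libraries.

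With KMT2C siRNA1, SNHG16 was above control in 3 of 3 lines but did not pass the test (log2 fold change 0.56, SE 0.158, edgeR adjusted p = 0.0851). With KMT2C siRNA2 and siRNA3 the estimates were -0.10 (SE 0.159) and 0.14 (SE 0.158). Set directly against the KMT2D libraries, the KMT2C libraries had less SNHG16 (log2 -0.58, or 0.667 times the level, SE 0.139, edgeR adjusted p = 0.0196), the only member called there, beside 5.17% of all genes (2.72% lower). This call was lost without the 3 libraries of many unassigned read pairs (-0.47, adjusted p = 0.118), without any 1 line (0.0837 to 0.184), and without KMT2C siRNA2 (0.0703) or KMT2C siRNA3 (0.0976) in all lines. With only the PANC1 library of KMT2C siRNA2 left out it held (-0.56, adjusted p = 0.0279). With limma-voom and siRNA as a random block its adjusted p was 0.0715.

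None of the other 23 members was called with the 6 KMT2D libraries as 1 group by edgeR on the filtered counts, while without the low-count filter 2 members were called in all. The members split 13 above and 11 below 0, with a median log2 fold change of 0.01 beside 0.02 for all genes. SNHG11 had 0.56 (SE 0.248) and SNHG25 -0.78 (SE 0.336), each with an unadjusted p under 0.05 and an edgeR adjusted p of 0.344 and 0.334. With SNHG16, 3 of 24 members were under that unadjusted p, beside 2651 of 21028 genes. In the same grouped comparison the lists that share biology with the hosts gave no call either, over 79 ribosomal protein genes, 19 snoRNP proteins, 19 decay factors, 18 other genes with a pyrimidine tract, 20 protein-coding snoRNA hosts and the 24 snoRNAs tested. The smallest p in these lists belonged to RPL34, a large-subunit protein (0.59, SE 0.173, adjusted p = 0.0991), and RPL36 (0.40, SE 0.137, adjusted p = 0.181). Ribosomal protein genes were above 0 in 61 of 79 cases, with a median of 0.11, beside 52.0% of all genes above 0.

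For the snoRNP proteins, which package the snoRNAs, the smallest p with KMT2D siRNA were those of NOP56, a core box C/D protein (-0.57, SE 0.202, edgeR adjusted p = 0.215), and NOP10, an H/ACA protein (0.35, SE 0.155, adjusted p = 0.348). NOP56 is itself a snoRNA host. Among the protein-coding hosts it was followed by SF3B3, a splicing factor (0.44, SE 0.213, adjusted p = 0.394). Among decay factors DCP2, the decapping enzyme, had -0.83 (SE 0.359, adjusted p = 0.348) and NBAS had -0.26 (SE 0.151, adjusted p = 0.509). Among the other tract-bearing genes these were EIF4B (0.34, SE 0.157, adjusted p = 0.369) and RACK1 (0.24, SE 0.123, adjusted p = 0.423). The snoRNAs with the smallest p were RF00283 of SNHG22 (-0.86, SE 0.353, adjusted p = 0.302) and SNORD12C of ZFAS1 (-0.69, SE 0.365, adjusted p = 0.448).

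The separate KMT2D siRNAs did give calls in these lists, where 4.02% of all genes were called with siRNA1 and 8.92% with siRNA2. With siRNA1, 1 of 19 snoRNP proteins was lower, the H/ACA protein GAR1 (-0.92, SE 0.231, edgeR adjusted p = 0.0226), 1 of 19 decay factors was lower, the exon junction protein CASC3 (-0.65, SE 0.161, adjusted p = 0.0203), and 1 of 20 protein-coding hosts was higher, SF3B3 (0.81, SE 0.141, adjusted p = 0.00110). Of 79 ribosomal protein genes RPS21 was lower (-0.90, SE 0.184, adjusted p = 0.00480) and RPL34 higher (0.74, SE 0.166, adjusted p = 0.00964). With siRNA2 the box C/D assembly factor ZNHIT6 was higher (0.61, SE 0.169, adjusted p = 0.0222), DCP2 was lower (-1.60, SE 0.208, adjusted p = 2.69e-05) and RPL22 was lower (-1.12, SE 0.224, adjusted p = 0.00264). Of the protein-coding hosts EEF2, also the 1 call of the other tract-bearing genes, was higher (0.47, SE 0.139, adjusted p = 0.0345), TNPO2 higher (0.52, SE 0.163, adjusted p = 0.0470) and NAP1L4 lower (-0.45, SE 0.142, adjusted p = 0.0463).

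Of 19 genes on the strand opposite a host, 3 were lower and 1 was higher with KMT2D siRNA2, and none was called with siRNA1. Of all genes 8.92% were called with siRNA2 and 4.02% with siRNA1. The 3 lower ones were ZBTB37 opposite GAS5 (-0.95, SE 0.177, edgeR adjusted p = 0.00108), MYO5B opposite SNHG22 (-0.89, SE 0.262, adjusted p = 0.0332) and GLRX5 opposite SNHG10 (-0.50, SE 0.158, adjusted p = 0.0465). None of the 24 tested snoRNAs was called with either KMT2D siRNA by edgeR.

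**Figure D3:**
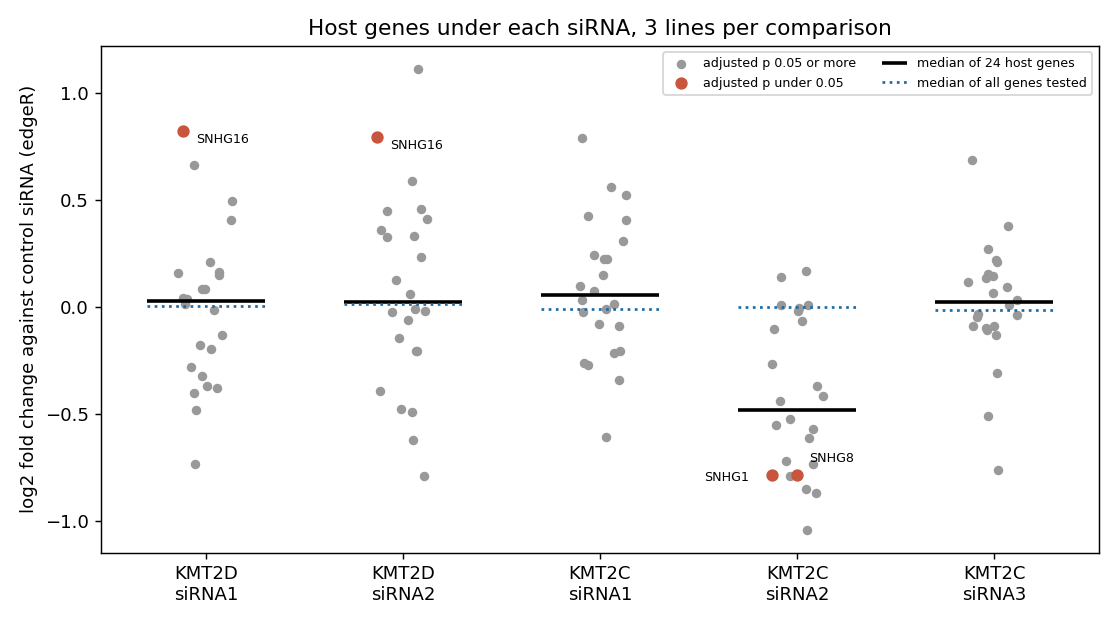
Fitted log2 fold change of each of the 24 host genes against control siRNA (y axis) for the 5 siRNAs (x axis), each over the 3 lines. Points are genes (red where the adjusted p is under 0.05), black bars the median of the hosts and dotted bars the median of all genes tested. With KMT2C siRNA2 the host median lay at -0.48, and with the other 4 siRNAs between 0.02 and 0.05.

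A second pattern was seen with KMT2C siRNA2. With it, 20 of 24 hosts had a negative log2 fold change, and the median was -0.48 beside 0.00 for all genes. SNHG1 and SNHG8 passed the test, which is 8.33% of the members beside 5.81% of all genes called, or 3.14% in the lower direction. A further 8 hosts had an unadjusted p under 0.05, all lower. That made 10 of 24 members, while 2089 of 21028 genes were lower at an unadjusted p under 0.05. With KMT2C siRNA1 and siRNA3 no member was called by edgeR (1 and 0 by DESeq2), beside 1.2% and 0.623% of all genes, and the medians were 0.05 and 0.02. At an unadjusted p under 0.05 were 2 and 1 members, beside 2356 and 2214 of 21028 genes. The 3 comparisons share the same controls.

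SNHG1 carries a series of box C/D snoRNAs, among them SNORD25 and SNORD27 shown above. Its level in PANC1 was 107 CPM with control siRNA, 83.3 and 62.7 CPM with KMT2D siRNA1 and siRNA2, and 95.1, 64.8 and 76.8 CPM with KMT2C siRNA1, siRNA2 and siRNA3. In COLO357 the values were 130.4 CPM with control siRNA, 154 and 119 CPM with KMT2D siRNA1 and siRNA2, and 145, 87 and 169 CPM with KMT2C siRNA1, siRNA2 and siRNA3. In SUIT2 they were 96.2 CPM with control siRNA, 81.8 and 67.8 CPM with KMT2D siRNA1 and siRNA2, and 84.3, 46.7 and 85.5 CPM with KMT2C siRNA1, siRNA2 and siRNA3. The KMT2C siRNA2 library was the lowest of its line in COLO357 and SUIT2, and in PANC1 it was second to the KMT2D siRNA2 library. SNHG1 was 1.72-fold lower with this siRNA (log2 -0.79, SE 0.159, edgeR adjusted p = 0.00317) and lower in 3 of 3 lines. The call held without the PANC1 library of that siRNA (-0.94, adjusted p = 0.00346) and without the 3 libraries of many unassigned read pairs (-0.69, adjusted p = 0.0453). Without SUIT2 it was lost (-0.68, adjusted p = 0.102). With KMT2D siRNA2, SNHG1 had -0.48 (SE 0.158, adjusted p = 0.0595).

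SNHG8 is the host of SNORA24, the H/ACA snoRNA shown above. The PANC1 libraries had 17.4 CPM (control siRNA), 11.9 and 14.9 CPM (the KMT2D siRNAs in numerical order) and 13, 9.98 and 13.3 CPM (the KMT2C siRNAs in numerical order). The COLO357 libraries had 26.8 CPM (control siRNA), 34.6 and 37.8 CPM (the KMT2D siRNAs in numerical order) and 34.9, 19.5 and 35.4 CPM (the KMT2C siRNAs in numerical order). The SUIT2 libraries had 24.5 CPM (control siRNA), 19.3 and 39 CPM (the KMT2D siRNAs in numerical order) and 25.3, 11.5 and 23.1 CPM (the KMT2C siRNAs in numerical order). KMT2C siRNA2 gave the lowest level of SNHG8 in each of the 3 lines, and KMT2D siRNA2 the highest in COLO357 and SUIT2. The log2 fold change with KMT2C siRNA2 was -0.79 (SE 0.208, edgeR adjusted p = 0.0234), or 1.72-fold lower. Leaving out the PANC1 library of this siRNA gave -0.96 (adjusted p = 0.0262). It no longer passed without the 3 libraries of many unassigned read pairs (-0.62, adjusted p = 0.236), without the PANC1 control (-0.60, adjusted p = 0.209), without the SUIT2 control (-0.78, adjusted p = 0.0677), or without the COLO357 or the SUIT2 KMT2C siRNA2 library (adjusted p = 0.0598 and 0.152). The same held without the whole of PANC1 (0.187) or SUIT2 (0.172).

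The test of the difference among the 3 KMT2C siRNAs called SNHG1 (edgeR adjusted p = 0.0110), SNHG26 (0.0174), SNHG16 (0.0329) and SNHG8 (0.0418). These were 4 of 24 members (16.7%), beside 4.51% of all genes. SNHG26 is the host of SNORD93. Its PANC1 libraries had 4.18 CPM (control siRNA), 2.81 and 3.87 CPM (the KMT2D siRNAs in numerical order) and 10.5, 2.72 and 6.28 CPM (the KMT2C siRNAs in numerical order). Those of COLO357 had 3.53 CPM (control siRNA), 4.17 and 4.07 CPM (the KMT2D siRNAs in numerical order) and 4.42, 1.67 and 6.66 CPM (the KMT2C siRNAs in numerical order). Those of SUIT2 had 1.32 CPM (control siRNA), 0.453 and 1.98 CPM (the KMT2D siRNAs in numerical order) and 1.74, 0.866 and 1.88 CPM (the KMT2C siRNAs in numerical order). SNHG26 was above control in 6 of 6 libraries of KMT2C siRNA1 and siRNA3 and below it in 3 of 3 of KMT2C siRNA2. The fitted log2 fold changes against control were 0.79 (SE 0.337), -0.79 (SE 0.364) and 0.69 (SE 0.338) in the order of the siRNAs, none of which passed on its own.

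For SNHG1 the same 3 estimates were -0.08 (SE 0.158), -0.79 and -0.09 (SE 0.158), and for SNHG8 -0.01 (SE 0.203), -0.79 and -0.04 (SE 0.204). With the PANC1 library of KMT2C siRNA2 left out, 1 of the 4 was still called by the edgeR test among siRNAs, SNHG1 (adjusted p = 0.0146), and the others had 0.0802 (SNHG16), 0.0525 (SNHG8) and 0.0822 (SNHG26). Without the 3 libraries of many unassigned read pairs no member was called there (adjusted p from 0.137 to 0.579). The SNHG1 call was also lost without the siRNA2 library of COLO357 (0.0735) or SUIT2 (0.106), and the SNHG26 call without that of COLO357 (0.141). Leaving out a whole line ended the SNHG1 call for COLO357 (0.0818) and SUIT2 (0.220), the SNHG26 call for PANC1 (0.214) and COLO357 (0.0718), and the SNHG16 and SNHG8 calls for any line (0.140 to 0.237 and 0.0923 to 0.330). For SNHG8 any 1 of the 9 KMT2C libraries ended it (0.0525 to 0.282), and for SNHG16 any but the siRNA3 libraries of PANC1 and COLO357 (0.0505 to 0.113). Whether the unassigned share has a part in these differences was not tested. The share was 15.6%, 13.1% and 24.99% in the siRNA2 libraries of PANC1, COLO357 and SUIT2, beside 7.49%, 14.5% and 16.5% in their controls.

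Under the same siRNA, KMT2C siRNA2, 5.81% of all genes were called (3.14% lower) and 50.1% of all genes lay above 0. Of 19 snoRNP proteins, 3 fell and none rose, with 16 below 0 and a median of -0.26. They were DKC1, the pseudouridine synthase of H/ACA particles (-0.63, SE 0.143, edgeR adjusted p = 0.00807), NOP56 (-0.86, SE 0.200, adjusted p = 0.0104) and NOP58, its partner in box C/D particles (-0.56, SE 0.165, adjusted p = 0.0449). DKC1 and NOP56 are snoRNA hosts too and were the 2 called of 20 protein-coding hosts, 18 of which lay below 0 (median -0.35). Of 24 host snoRNAs, 1 fell, SNORD104 of SNHG25 (-1.81, SE 0.426, adjusted p = 0.0118), with 20 below 0. None of 79 ribosomal protein genes was called, 63 lay below 0 and the median was -0.17. RPL41 (-0.48, SE 0.162, adjusted p = 0.0835) and RPL21 (-0.68, SE 0.271, adjusted p = 0.151) had the smallest p.

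Among the 18 other tract-bearing genes NPM1, a nucleolar chaperone of ribosome assembly, fell (-0.81, SE 0.159, edgeR adjusted p = 0.00266), and 13 lay below 0. Of 19 decay factors DCP2 fell (-1.39, SE 0.207, adjusted p = 0.000166) and SMG6, the endonuclease of nonsense-mediated decay, rose (0.88, SE 0.180, adjusted p = 0.00348). With KMT2C siRNA2 none of the tested markers of fibroblasts (5, median 1.11), leukocytes (3, median -1.78) or endothelium (CDH5, 1.24) was called, nor any of the 6 epithelial ones (median -0.55, all below 0). In the comparison of KMT2C with KMT2D siRNA, where SNHG16 was called, CDH5 was higher (1.93, SE 0.403, edgeR adjusted p = 0.00977), as it was with KMT2C siRNA1 (2.07, SE 0.508, adjusted p = 0.0406). CDH5 was nearly confined to COLO357 (log2 9.16 for COLO357 against PANC1, -8.81 for SUIT2 against COLO357), so both calls rest mainly on that line. KRT7 was lower with KMT2D siRNA1 (-0.96, SE 0.235, adjusted p = 0.0221), where SNHG16 was also called, and higher with KMT2D siRNA2 than with siRNA1 (0.73, SE 0.235, adjusted p = 0.0489). Their part in the SNHG16 results was not tested. Summed over a list, the markers lay between 1.23 and 179.7 CPM (fibroblast), 0.167 and 9.77 CPM (leukocyte), 0 and 28.3 CPM (endothelium) and 812 and 6834 CPM (epithelium) across libraries. Their part in the host values was not tested. In bulk RNA, fewer cells with a transcript and less of it per cell cannot be told apart.

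The 3 KMT2C siRNAs as 1 group called no member by edgeR or by DESeq2, beside 0.281% of all genes. At an unadjusted p under 0.05 were 1930 of 21028 genes and 2 of 24 members, both lower. These were DANCR (-0.38, SE 0.168, edgeR adjusted p = 0.504) and SNHG25 (-0.75, SE 0.318, adjusted p = 0.482). DANCR was below control in 8 of 9 KMT2C libraries, at 57.6% to 104% of it, and SNHG25 in 7 of 9, at 28.1% to 127%. Of the members 16 lay below 0 and the median was -0.11, while 50.4% of all genes lay above 0. Against the KMT2D libraries, 8 of 79 ribosomal protein genes were lower and none higher with KMT2C siRNA (median -0.21), among them RPL36 (-0.44, SE 0.0998, edgeR adjusted p = 0.0155), RPL7A (-0.50, SE 0.127, adjusted p = 0.0274) and RPL13 (-0.44, SE 0.113, adjusted p = 0.0275). Of all genes, 5.17% were called there (2.72% lower). RPL7A and RPL13 are themselves hosts of box C/D snoRNAs. In that comparison 3 of 18 other tract-bearing genes were lower: EIF4B (-0.45, SE 0.114, adjusted p = 0.0260), EIF3E (-0.35, SE 0.0951, adjusted p = 0.0345) and EEF1A1 (-0.35, SE 0.0985, adjusted p = 0.0407).

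**Figure D4:**
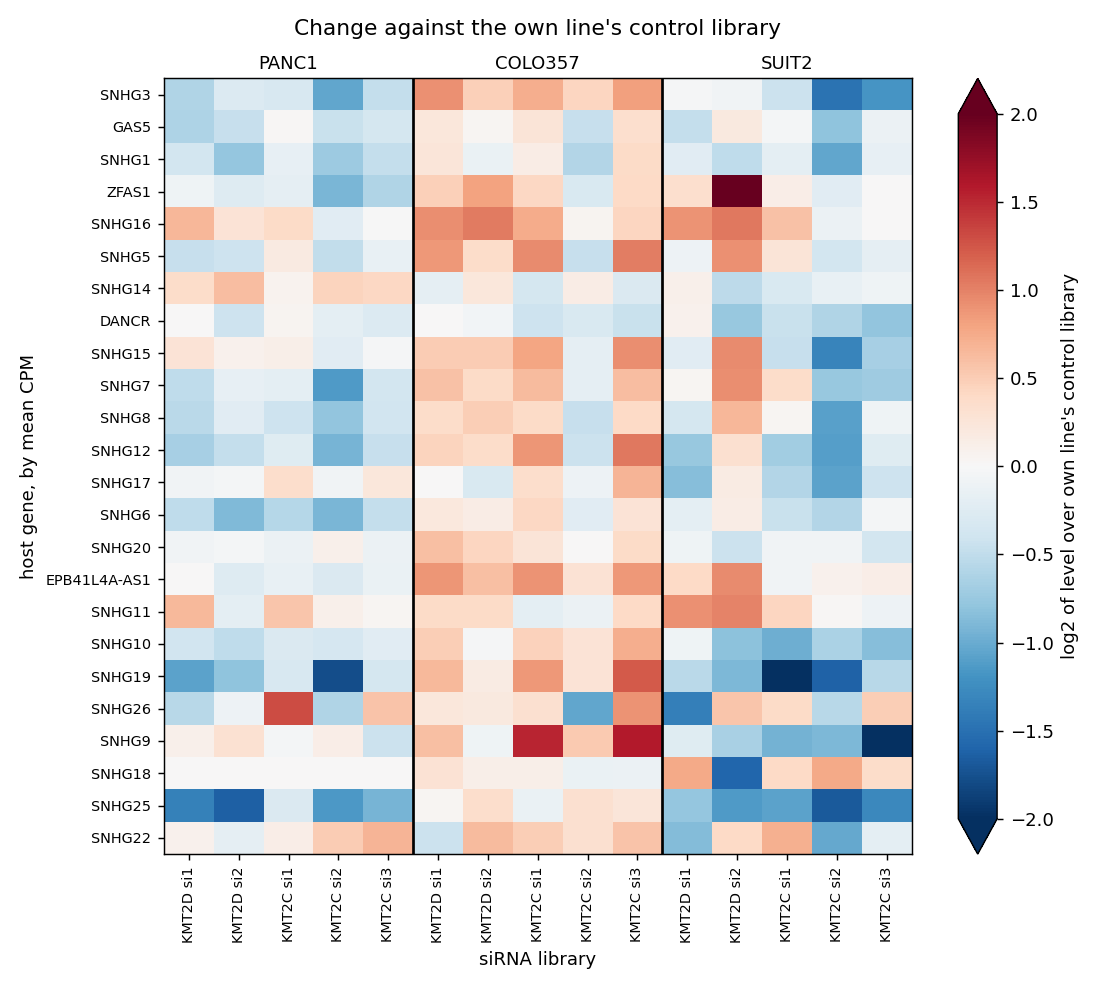
Log2 of the level over the own line's control library for the 24 host genes (rows, by mean CPM) in the 15 siRNA libraries (columns, grouped by line), with red above and blue below control and colours capped at 2 and -2. COLO357 columns are mostly red except that of KMT2C siRNA2, where 10 of 24 hosts were above control (51.1% of all genes tested). The highest count was 22 of 24 with KMT2D siRNA1 (51.4% of all genes tested). The SUIT2 KMT2C siRNA2 column is mostly blue, with 21 of 24 below (47.9% of all genes tested). SNHG18 carries the colour of no change in PANC1, where it had no counts.

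The library values showed how far the lines differed under the same siRNA. In COLO357, 22 of 24 hosts were above control with KMT2D siRNA1, 19 with KMT2D siRNA2, 20 with KMT2C siRNA1 and 21 with KMT2C siRNA3, and 10 with KMT2C siRNA2. In PANC1 the same siRNAs, in numerical order, had 8 and 5 hosts above control for KMT2D and 10, 5 and 5 for KMT2C. In SUIT2 these counts were 8 and 14, and 9, 3 and 5. Of all genes tested, 46.2% to 51.7% lay above control in an siRNA library. All 5 libraries of a line share 1 control library, so a level particular to that control moves all 5 together. No member was called in the edgeR tests of whether the KMT2D or the KMT2C effect differs between lines, and neither was any other gene (0% of 21028). At an unadjusted p under 0.05 these tests had 1 and 3 members and 475 and 469 genes, and DESeq2 also called no member.

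With KMT2C siRNA2, 12 of 24 hosts were below control in all 3 lines and none was above it in all 3. The share of all genes below control in all 3 lines was not counted for any siRNA, so these counts have no background beside them. In a single library of this siRNA, 47.9% to 48.9% of all genes lay below control, which is not a measure over 3 lines. KMT2D siRNA1 had 0 below and 4 above in all 3 lines, KMT2D siRNA2 3 and 2, KMT2C siRNA1 1 and 4, and KMT2C siRNA3 1 and 1. The 12 were GAS5, SNHG1, ZFAS1, SNHG5, DANCR, SNHG15, SNHG7, SNHG8, SNHG12, SNHG17, SNHG6 and SNHG26. SNHG3 was not among them, and its 3 KMT2C siRNA2 values were far apart. In PANC1 SNHG3 measured 241 CPM (control siRNA), 159 and 198 CPM (the KMT2D siRNAs in numerical order) and 193, 117 and 173 CPM (the KMT2C siRNAs in numerical order). In COLO357 it measured 206 CPM (control siRNA), 389 and 286 CPM (the KMT2D siRNAs in numerical order) and 341, 277 and 364 CPM (the KMT2C siRNAs in numerical order). In SUIT2 it measured 177 CPM (control siRNA), 175 and 169 CPM (the KMT2D siRNAs in numerical order) and 131, 63.7 and 77.8 CPM (the KMT2C siRNAs in numerical order). SNHG3 was below control in 5 of 5 PANC1 libraries and above it in 5 of 5 COLO357 libraries. Its log2 fold change with KMT2C siRNA2 was -0.74 (SE 0.300, edgeR adjusted p = 0.180).

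SNORA73B, inside SNHG3, had 116 CPM in the PANC1 control and 64.9 CPM in the library labelled PANC1 KMT2C siRNA2. In COLO357 it went from 108 to 167 CPM and in SUIT2 from 96.4 to 55.6 CPM between the same groups. The direction in each line was that of its host, and with this siRNA the fitted change of SNORA73B was -0.38 (edgeR adjusted p = 0.327).

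GAS5 holds an open reading frame too short to code a stable protein and is a known target of nonsense-mediated decay. PANC1 libraries held 85.6 CPM (control siRNA), 55.7 and 62.4 CPM (the KMT2D siRNAs in numerical order) and 87.1, 62.6 and 67 CPM (the KMT2C siRNAs in numerical order). COLO357 libraries held 108 CPM (control siRNA), 127 and 112 CPM (the KMT2D siRNAs in numerical order) and 129.7, 78.5 and 137 CPM (the KMT2C siRNAs in numerical order). SUIT2 libraries held 129.5 CPM (control siRNA), 93 and 148 CPM (the KMT2D siRNAs in numerical order) and 125, 74 and 119.9 CPM (the KMT2C siRNAs in numerical order). With KMT2C siRNA2 GAS5 was at 57.1% to 73.1% of control in the 3 lines (log2 -0.57, SE 0.180, edgeR adjusted p = 0.0611). The other siRNAs gave estimates between -0.28 and 0.07. SNHG12, the host of SNORD99 among others, had the same standing with KMT2C siRNA2 (-0.87, SE 0.266, adjusted p = 0.0571).

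ZFAS1 carries SNORD12, SNORD12B and SNORD12C and is transcribed away from ZNFX1. ZFAS1 in PANC1 stood at 79.9 CPM (control siRNA), 75.1 and 67 CPM (the KMT2D siRNAs in numerical order) and 70.5, 42.2 and 52.5 CPM (the KMT2C siRNAs in numerical order). In COLO357 it stood at 58.4 CPM (control siRNA), 81.1 and 102 CPM (the KMT2D siRNAs in numerical order) and 77.5, 47.1 and 77.1 CPM (the KMT2C siRNAs in numerical order). In SUIT2 it stood at 63.7 CPM (control siRNA), 80.8 and 313 CPM (the KMT2D siRNAs in numerical order) and 70.0, 54.6 and 63.9 CPM (the KMT2C siRNAs in numerical order). The SUIT2 KMT2D siRNA2 library was at 491% of its control, and the next highest, COLO357 with the same siRNA, at 174%. The fitted log2 fold change with KMT2D siRNA2 was 1.11 (SE 0.376, edgeR adjusted p = 0.0893). The log2 values of the 3 lines against their controls ran from -0.25 to 2.29, with a mean of 0.95 and an SD of 1.28. In the same SUIT2 library ZNFX1, on the opposite strand, had 282 CPM beside 161 in the control. Of the snoRNAs of ZFAS1, SNORD12 had 26 counts in both libraries, SNORD12B 27 beside 16 and SNORD12C 12 beside 36. The sources used here do not give the strand setting of the counting, so reads of overlapping opposite genes cannot be told apart.

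SNHG5, the host of U50 box C/D snoRNAs, was the last of the 6 hosts with the highest mean CPM. In PANC1 it gave 60.0 CPM (control siRNA), 43.4 and 45.1 CPM (the KMT2D siRNAs in numerical order) and 68, 42.7 and 54.2 CPM (the KMT2C siRNAs in numerical order). In COLO357 it gave 10.5 CPM (control siRNA), 19.1 and 13.5 CPM (the KMT2D siRNAs in numerical order) and 20.2, 7.59 and 21.3 CPM (the KMT2C siRNAs in numerical order). In SUIT2 it gave 38.2 CPM (control siRNA), 35.7 and 71.9 CPM (the KMT2D siRNAs in numerical order) and 45.5, 29.7 and 33.7 CPM (the KMT2C siRNAs in numerical order). COLO357 was the lowest line under every siRNA. In that line the level was above control in 4 of 5 siRNA libraries and below it with KMT2C siRNA2. No siRNA comparison of SNHG5 passed the test, and its estimates ran from -0.44 to 0.43.

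The 2 KMT2D siRNAs differed in no member by edgeR (1 by DESeq2), although 11.3% of all genes differed between them. At an unadjusted p under 0.05 were 5120 of 21028 genes and 4 of 24 members. The 4 were DANCR (siRNA2 against siRNA1, -0.43, SE 0.178), SNHG1 (-0.35, SE 0.158), ZFAS1 (0.90, SE 0.373) and SNHG8 (0.50, SE 0.203), with adjusted p from 0.117 to 0.168. Of 20 protein-coding hosts 4 were higher and 1 lower, among them SF3B3 (-0.85, SE 0.141, adjusted p = 0.000253), TNPO2 (0.75, SE 0.164, adjusted p = 0.00338), NCL, the nucleolin gene (0.57, SE 0.162, adjusted p = 0.0240), and EEF2 (0.48, SE 0.139, adjusted p = 0.0271).

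Most hosts differed between the lines. Between COLO357 and PANC1, 16 of 24 members differed (13 higher in COLO357 and 3 lower), or 66.7% beside 70.5% of all genes. Between SUIT2 and PANC1 13 differed (8 higher and 5 lower in SUIT2), or 54.2% beside 63.7%, and between SUIT2 and COLO357 17 differed (3 higher and 14 lower in SUIT2), or 70.8% beside 64.2%. The share higher in COLO357 than in PANC1 was 54.2% of members beside 36.7% of all genes, and the share lower was 12.5% beside 33.8%. In SUIT2 against PANC1 these shares were 33.3% beside 31.5% and 20.8% beside 32.2%. In SUIT2 against COLO357 they were 12.5% beside 31% and 58.3% beside 33.2%. COLO357 had the highest mean of the 3 lines for 13 of 24 hosts. Each line had 6 libraries under 6 different treatments, and the treatment was a term of the fit.

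DANCR was highest in COLO357, at 50.9 ± 7.36 CPM (SD, n = 6), with 21.6 ± 5.87 CPM in SUIT2 and 11.7 ± 1.51 CPM in PANC1, and the libraries of the 3 lines did not overlap. It was 4.33-fold higher in COLO357 than in PANC1 (log2 2.12, SE 0.130, edgeR adjusted p = 4.55e-13). SNHG19, the host of SNORD60, had 7.37 ± 2.53 CPM in COLO357, 2.10 ± 0.857 in PANC1 and 1.38 ± 0.703 CPM in SUIT2. SNHG9 had 5.16 ± 2.69 CPM in COLO357, 1.08 ± 0.186 CPM in PANC1 and 0.560 ± 0.289 CPM in SUIT2 (SD, n = 6 for each). The libraries of COLO357 lay above all 12 others for DANCR, SNHG19, SNHG9, SNHG10 and SNHG18, which is 5 of 24 members (20.8%) beside 11.6% of all genes tested. PANC1 lay below all others for DANCR and SNHG18, 2 of 24 (8.33%) beside 9.2% of all genes. SNHG18 met the member level of 0.5 CPM only through COLO357, so its place in both counts is in part set by that rule.

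SNHG18 had no counts in the 6 PANC1 libraries, 47 in SUIT2 and 600 in COLO357. Summed over a line, that is 4.77 CPM in COLO357 and 0.399 CPM in SUIT2, while 3 counts, the limit that a count of 0 allows over the PANC1 libraries, correspond to 0.0211 CPM. It was thus at least 226-fold higher in COLO357 than in PANC1 and 11.9-fold higher than in SUIT2. SEMA5A, the semaphorin gene on the opposite strand, had 14.8 to 32.8 CPM in COLO357 and at most 0.113 CPM in the other lines. The limit covers counting error only.

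SNHG5 went the other way, at 15.4 ± 5.67 CPM in COLO357, 52.2 ± 10.3 CPM in PANC1 and 42.5 ± 15.4 CPM in SUIT2 (SD, n = 6 for each), with all COLO357 libraries below the others, the 1 member of 24 for which this held (4.17%), beside 8.3% of all genes. It was lower in COLO357 than in PANC1 by a log2 of -1.82 (SE 0.208, edgeR adjusted p = 2.52e-07). SNHG16 fell in the order PANC1 (99.8 ± 22.6 CPM), COLO357 (66.5 ± 19.7 CPM) and SUIT2 (35.3 ± 12.6 CPM; SD, n = 6 for each), with a log2 of -0.62 (SE 0.111, adjusted p = 2.89e-05) at the first step and -0.93 (SE 0.113, adjusted p = 1.32e-07) at the second. SNHG20 was lowest in SUIT2, at 8.16 ± 0.971 CPM beside 14.8 ± 0.899 CPM in PANC1 and 13.9 ± 2.31 CPM in COLO357, without overlap, the 1 member of 24 with SUIT2 below all others, beside 5.84% of all genes.

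SNHG1 was higher in COLO357 (134 ± 29.1 CPM) than in PANC1 (81.6 ± 17.2 CPM) and SUIT2 (77.1 ± 17.5 CPM; SD, n = 6 for each). SLC3A2, an amino acid transporter subunit that starts beside SNHG1 on the opposite strand, had 632 to 957 CPM in COLO357 and 114 to 253 CPM in the other lines. SNHG6, SNHG7 and ZFAS1 were the 3 members not called in any of the line comparisons. SNHG6 had means of 16.1, 13.7 and 17.1 CPM and SNHG7 of 20.025, 22.8 and 27.0 CPM in PANC1, COLO357 and SUIT2.

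None of the other members was called with any siRNA by edgeR on the filtered counts. DESeq2 called more members than edgeR in some of these comparisons (5 against 2 with KMT2C siRNA2, 3 against 1 with KMT2D siRNA2 and 1 against 0 with KMT2C siRNA1). Over the 15 siRNA libraries EPB41L4A-AS1 ran from 81.8% to 193% of control, SNHG11 from 87.0% to 202%, SNHG15 from 39.6% to 192% and SNHG7 from 45.4% to 191%. The corresponding ranges were 69.4% to 153% for SNHG14, 74.2% to 153% for SNHG20, 47.7% to 160% for SNHG17 and 52.9% to 133% for SNHG6. SNHG10 ranged from 49.9% to 167%, SNHG22 from 45.8% to 171%, SNHG19 from 21.0% to 237% and SNHG9 from 13.2% to 308%. The widest of these belong to SNHG9 and SNHG19, which had from 2 to 149 and from 8 to 192 counts in a library. The part of low counts in these ranges was not tested. For SNHG25, between 4 and 47 counts, the range was 23.5% to 130%.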

How the data were processed

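The deposited files hold, for each of the 18 libraries, whole-number counts of read pairs per Ensembl gene, not normalized. FastQC, TopHat2, HTSeq, edgeR and the build hg19 are named in the submitters' processing notes. Their versions, the annotation release and the strand setting were not given there. Names were taken from GENCODE v29, which named 52526 of the 63677 identifiers; the 5 summary rows that name no gene held 33.0% to 53.4% of listed pairs and stayed out of library sizes. The members and all lists were chosen with earlier results of these data known.

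Genes were kept by filterByExpr (minimum count 10, minimum total 15), leaving 21028, and scaled by TMM (factors 0.946 to 1.06). Tests were quasi-likelihood tests of edgeR 4.0.16 in R 4.3.3, Benjamini-Hochberg adjusted over all genes, threshold 0.05, with cell line as a block and target or siRNA as a term over all 18 libraries, and a fit of line by target for differences between lines. The scripts were tested on simulated data. Library values against control use log2 CPM with a prior count of 2. The lines pair the libraries: deviations from the group means correlated at 0.860 to 0.943 within a line (45 pairs). Pairs of libraries of 1 line and target differed by more than sampling noise, so none was merged. For a single siRNA the p-values measure the spread between 3 lines with 1 library per siRNA and line, shared over all 18 libraries. Where the siRNAs of a target formed 1 group, they were taken as its replicates. Those p-values mix the spread between siRNAs with that between lines. Libraries went into 7 pools and 7 lanes per the labels' protocols, and the pool of each library is not given, so it could not be fitted.

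Every member was named; values in every library were given for members called outside the line comparisons and for the 6 with the highest mean CPM; in other lists up to 4 called genes with the smallest p, or the 2 with the smallest p where none was called. Some genes that this rule names are not reported here. Other genes named beside a member (opposite strand genes, SNORA73B, the snoRNAs of ZFAS1) and the hosts singled out between lines were chosen after their values were seen. ZNHIT3 and TAF9 of the snoRNP list found no identifier. Alternatives were RLE normalization, DESeq2 1.42.0, no filter, no line term, limma-voom (limma 3.58.1) with siRNA as a random block, a member threshold of 1 CPM, and leaving out each library, line or siRNA, or the 3 libraries with over 20% of pairs in no feature. Start windows are from RefSeq (GRCh38.p14), and the promoter table runs from 250 bases before to 50 after each start.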

Additional observations from a re-analysis of the deposited data

Results flagged for a closer look

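SNHG16 differed between the KMT2C and the KMT2D siRNA libraries (edgeR adjusted p = 0.0196). It stood at 85.5% to 167% of control in the 9 KMT2C libraries and at 120% to 208% in the 6 KMT2D libraries.

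In 4 members the change against control differed between the 3 KMT2C siRNAs by the edgeR F test: SNHG1 (adjusted p = 0.0110), SNHG26 (adjusted p = 0.0174), SNHG16 (adjusted p = 0.0329) and SNHG8 (adjusted p = 0.0418). Each is low with KMT2C siRNA2 relative to siRNA1 in all 3 lines. Of the 46 sets of libraries checked for a library far from the rest (each member with the KMT2D and with the KMT2C siRNAs, without SNHG18, which has a control at 0 counts), 0 held one, where chance gives about 1 in 20.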

How the results depend on the processing

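Leaving out the cell line term (no replicate block), although the lines pair the libraries, left 0 members called in each of the 6 treatment comparisons that had a call: KMT2D siRNA, KMT2D siRNA1, KMT2D siRNA2, KMT2C siRNA2, KMT2C against KMT2D, and between the 3 KMT2C siRNAs. Without the low-count filter the members called were 2 (KMT2D siRNA), 2 (KMT2C against KMT2D), 2 (KMT2D siRNA2), 7 (KMT2C siRNA2), 1 (KMT2D siRNA2 against siRNA1) and 11 (between the KMT2C siRNAs). With DESeq2 they were 2 (KMT2C against KMT2D), 3 (KMT2D siRNA2), 1 (KMT2C siRNA1), 5 (KMT2C siRNA2), 1 (KMT2D siRNA2 against siRNA1) and 7 (between the KMT2C siRNAs). Limma-voom with siRNA as a random block called 0 for KMT2D siRNA and 0 for KMT2C against KMT2D. Leaving out KMT2C siRNA3 in all lines gave 0 for both of these, leaving out KMT2C siRNA2 gave 0 for KMT2C against KMT2D, and leaving out KMT2D siRNA1 gave 2 there. Without the 3 libraries with over 20% of pairs in no feature the counts were 0 (KMT2C against KMT2D), 1 (KMT2C siRNA2) and 0 (between the KMT2C siRNAs). Leaving out a library or a line gave 0 to 1 member for KMT2D siRNA, KMT2D siRNA1, KMT2C siRNA1 and KMT2C against KMT2D, 0 to 2 for KMT2D siRNA2 and for KMT2D siRNA2 against siRNA1, and 0 to 8 for KMT2C siRNA2 and between the KMT2C siRNAs. The comparisons of lines stayed within 12 to 18 members. The number of hosts below 0 with KMT2C siRNA2 was 18 to 22. RLE normalization and the 1 CPM threshold kept each count within 1.5 times. No call of a member changed direction under these alternatives. The cause of these changes was not tested. The fit of line by target was not run without a control library, which leaves that line with no reference. Hosts with few counts, such as SNHG9, SNHG25 and SNHG22, are limited by depth.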
